A study of Mus musculus with 2 samples.

Results

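The 39 Hox genes of the mouse were examined for binding of TOBF1 in embryonic stem (ES) cells. They were chosen by symbol, as the protein-coding RefSeq genes named Hoxa, Hoxb, Hoxc or Hoxd followed by a number. Earlier results of these data were known when the choice was made. The genes make up 39 of the 21883 protein-coding genes placed on chromosomes 1 to 19, X and Y. The Hoxa cluster on chromosome 6 holds 11 of them, the Hoxb cluster on chromosome 11 holds 10, and the Hoxc cluster on chromosome 15 and the Hoxd cluster on chromosome 2 hold 9 each. Binding was measured by ChIP-Seq, in which DNA crosslinked to a protein is precipitated with an antibody and sequenced, in R1/E mouse ES cells grown in serum with LIF, a cytokine that keeps them undifferentiated. The cells carried a tagged copy of the TOBF1 gene (A830080D01Rik, listed by RefSeq as Bclaf3) on a bacterial artificial chromosome (BAC), and their chromatin was fixed with both DSG and formaldehyde. Of the 2 libraries, 1 was the TOBF1 precipitate, made with an anti-GFP antibody, and 1 was input chromatin of cells with the same construct, made without antibody; the peak list of the TOBF1 precipitate is the data analysed here. Whether the cells were a single clone, and at what level the tagged copy was expressed next to the gene of the cells themselves, is not given in the sources used here.

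Hox genes encode homeodomain transcription factors that give the cells of an embryo their position along the body axis. Within a cluster they lie in the order of their numbers, and low-numbered genes are switched on earlier and closer to the head than high-numbered ones. In undifferentiated ES cells the clusters are silent and covered by Polycomb complexes, and retinoic acid switches on the low-numbered genes first. Gene-poor stretches beside some clusters, those on both sides of Hoxd above all, carry distant enhancers of the Hox genes.

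The peak list held 12181 peaks, of which 12012 lay on the chromosomes used (mm10 build) and 169 on scaffolds that were left out. Each peak has a score given by the authors' peak caller, taken as a q-value on the −log10 scale, with a median of 10.0 and a range of 1.30 to 216.1 over the chromosomes. The number of reads behind a peak is unknown, so a locus without a peak is one where none was called, not one shown to be unbound. Because each group is a single library, replicate errors cannot be given and no difference was tested. Counts are therefore set beside the same count over all protein-coding genes or over all windows of the same length along the chromosomes. The intervals given are exact 95% intervals and cover counting error only, and since peaks come in groups and neighbouring Hox genes share the same nearby peaks, they are too narrow.

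Inside the 4 clusters TOBF1 peaks were few. The Hoxa cluster (chromosome 6, 52155367 to 52260880) and the Hoxb cluster (chromosome 11, 96194316 to 96368254) held 0 peak midpoints. The Hoxc cluster (chromosome 15, 102921131 to 103036856) held 1, inside Hoxc13, which acts in hair and nail formation. The Hoxd cluster (chromosome 2, 74668225 to 74765142) also held 1, in the gap between Hoxd13 and Hoxd12, which pattern the digits. Over the 492.1 kb of all clusters this made 2 peaks (exact Poisson 95% interval 0.242 to 7.22), while the mean density of peaks on the same chromosomes would place 2.28 there.

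An empty stretch of this length was common in the list. Of all windows as long as the Hoxa cluster 29.5% held a peak midpoint, against 42.2% of windows as long as Hoxb, 31.7% as long as Hoxc and 27.8% as long as Hoxd. Peak-free stretches ran well past the edges of the clusters. All 11 Hoxa genes lay in a stretch of 317.9 kb between neighbouring peaks, all 10 Hoxb genes in 356.8 kb, Hoxc4 to Hoxc12 in 314.1 kb and Hoxd1 to Hoxd12 in 220.4 kb. Stretches at least this long were the usual state of the chromosomes: they made up 68.8%, 65.0%, 69.2% and 78.5% of the sequence in the same order.

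**Figure D1:**
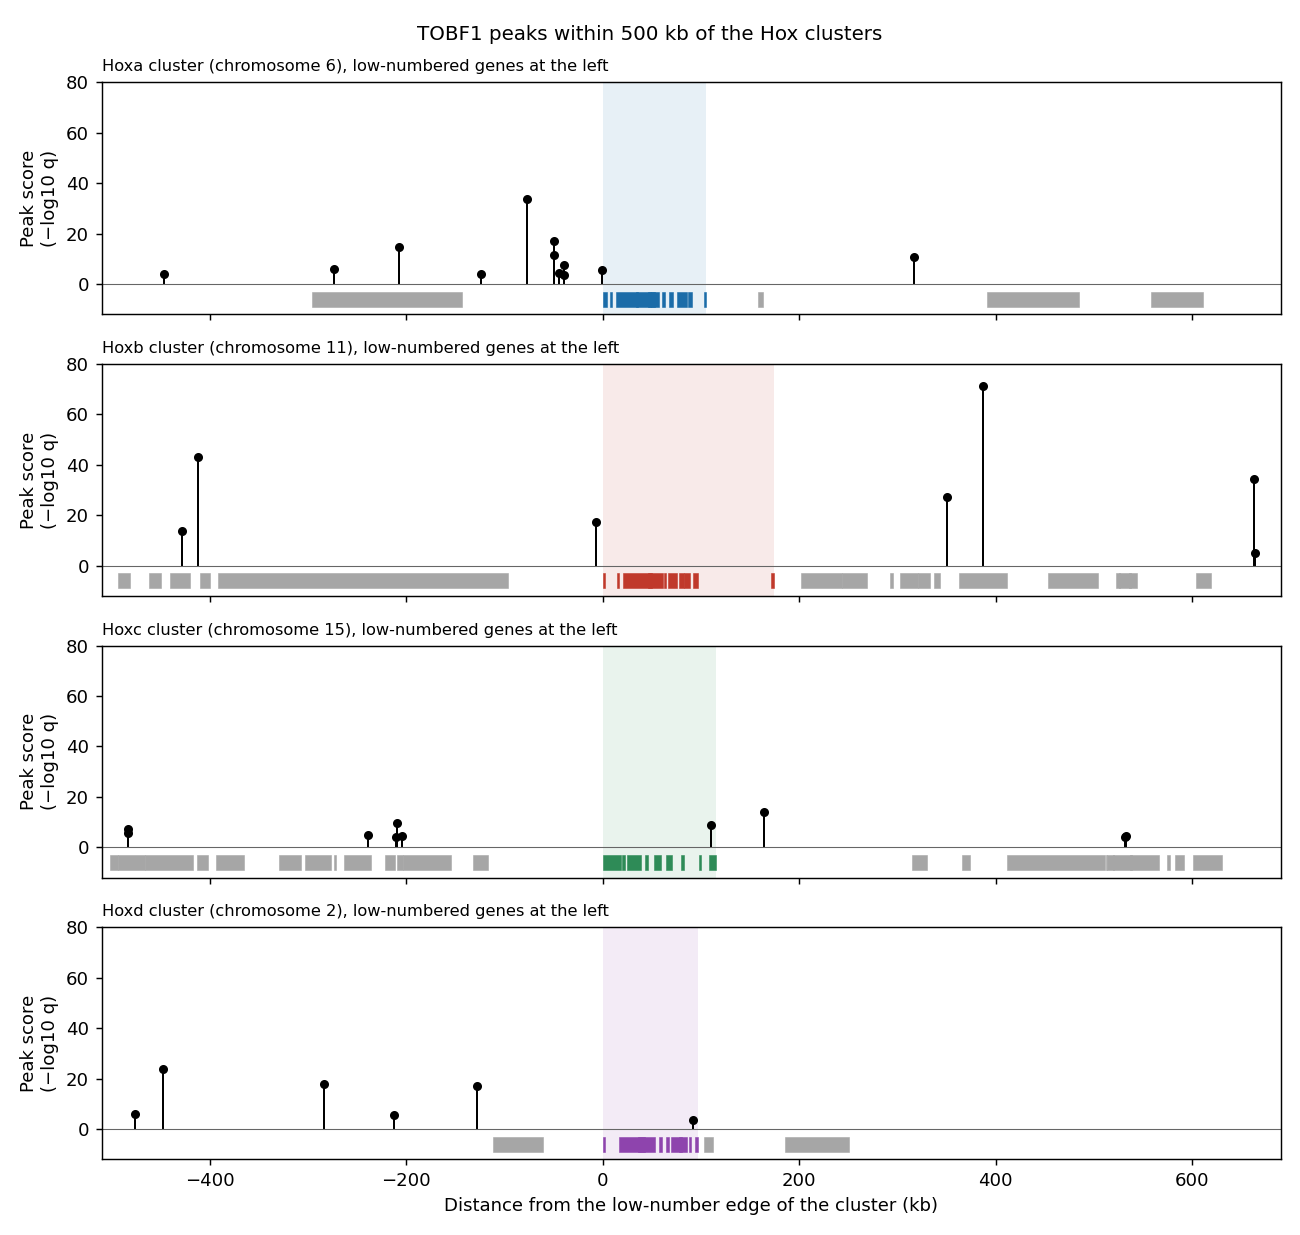
Peaks within 500 kb of the Hoxa, Hoxb, Hoxc and Hoxd clusters, as black stems at their midpoints with the score (−log10 of a q-value) as height, against the distance in kb from the edge with the lowest-numbered Hox gene, drawn to scale. Coloured boxes are Hox genes, grey boxes other protein-coding genes and shading the cluster. The 11 peaks on the low-numbered side of Hoxa stand in contrast to 0 on the Hoxd13 side, and 2 stems fall in the shaded clusters.

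No Hox gene had a peak at an end. A peak midpoint no more than 1 kb away from either gene end was found for 0 of the 39 members (exact Clopper-Pearson interval 0 to 9.03%; by the simpler rule that sets the limit of a count of 0 at 3 counts, a share of up to 7.69%), against 2.67% of all protein-coding genes. At this background a list of 39 genes would hold few such genes in any case. Hoxd13 fell just outside the window, since the peak nearest to it had its midpoint 1.15 kb from the gene.

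Within 5 kb of an end there were 4 Hox genes (10.3%, interval 2.87 to 24.2%, against 8.98% of all protein-coding genes), among them Hoxc13 and Hoxd13. Counting the gene itself and 10 kb to each side, there were 7 (17.9%, interval 7.54 to 33.5%, against 21.6% of all). Hoxa2, which sets the identity of the second pharyngeal arch, the hindbrain gene Hoxb1 and the limb gene Hoxd11 were among the further ones. These 7 genes shared 4 peaks, so they are not 7 separate observations.

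The peaks differed in score. The peak beside Hoxb1 (chromosome 11, 96374920 to 96375090) had a score of 17.4, with 72.0% of the list at or below it. The peak inside Hoxc13 (chromosome 15, 102926504 to 102926646) scored 8.88, near the middle of the list, with 43.6% of peaks at or below it. The peak between Hoxd13 and Hoxd12 (chromosome 2, 74672624 to 74672873) scored 3.64, with 7.27% of the list at or below it. Of these 3, the one beside Hoxb1 alone scored above the median of the list.

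The RefSeq promoter table (GRCm38.p6) held 22 of the 39 Hox genes, or 56.4%, which is under the 80% needed to describe the base content of the members as a set, so such a check is void. None of these 22 had a peak midpoint within 1 kb of the listed start, against 1.37% of all 17491 protein-coding genes in the table. A list of 22 would hold few such genes at this background in any case. As examples of Hox promoters, the 250 bases before the start are given for 1 gene per cluster. Each is the gene nearest to a peak among those in the table (Hoxc4 is the only Hoxc gene there). Since few promoters of any gene had a peak, these sequences tell nothing about binding. CG dinucleotides, at which mammalian DNA is methylated and which are dense in many promoters under Polycomb, are in capitals. Hoxa2 is on the minus strand (chr6:52164832-52165081), and Hoxb1 (chr11:96365508-96365757), Hoxc4 (chr15:103034145-103034394) and Hoxd13 (chr2:74667975-74668224) are on the plus strand.
Hoxa2: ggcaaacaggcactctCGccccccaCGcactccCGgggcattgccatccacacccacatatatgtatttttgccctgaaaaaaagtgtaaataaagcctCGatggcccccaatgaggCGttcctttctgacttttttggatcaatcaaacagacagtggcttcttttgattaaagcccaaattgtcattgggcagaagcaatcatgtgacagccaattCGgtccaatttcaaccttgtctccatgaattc
Hoxb1: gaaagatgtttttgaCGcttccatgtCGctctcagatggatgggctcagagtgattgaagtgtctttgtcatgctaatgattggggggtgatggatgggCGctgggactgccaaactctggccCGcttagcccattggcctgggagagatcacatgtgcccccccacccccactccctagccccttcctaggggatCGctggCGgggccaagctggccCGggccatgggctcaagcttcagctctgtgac
Hoxc4: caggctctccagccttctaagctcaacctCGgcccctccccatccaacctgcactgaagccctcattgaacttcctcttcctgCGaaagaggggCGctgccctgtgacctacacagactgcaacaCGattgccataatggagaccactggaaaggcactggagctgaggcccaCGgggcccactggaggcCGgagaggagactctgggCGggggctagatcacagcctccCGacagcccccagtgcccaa
Hoxd13: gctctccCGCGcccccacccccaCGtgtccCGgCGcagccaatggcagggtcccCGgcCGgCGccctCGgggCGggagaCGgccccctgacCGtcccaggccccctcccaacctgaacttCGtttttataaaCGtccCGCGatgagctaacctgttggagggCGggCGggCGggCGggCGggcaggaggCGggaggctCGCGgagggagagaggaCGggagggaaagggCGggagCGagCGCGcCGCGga

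These promoters were unlike in base content. The Hoxd13 promoter had 31 CG dinucleotides and 74.4% G and C. The others had 6 (Hoxa2), 7 (Hoxb1) and 8 (Hoxc4), where the median over all protein-coding promoters was 10 (55.2% G and C). A TATAAA match, at any position and on either strand, was found in the Hoxd13 window and in 12.4% of all promoter windows. An AGGTCA match, the half-site of nuclear receptors such as those of retinoic acid, was found on either strand in the Hoxc4 window and in 12.6% of all. By strand, the peak at Hoxd13 lay 4.52 kb after its start and 2.26 kb before the start of Hoxd12, and the peak at Hoxb1 lay 9.25 kb after the listed start, beyond the far end of the gene.

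The densest group of peaks near any cluster lay beside Hoxa, on the side of its low-numbered genes. The 500 kb on this side held 11 peaks (exact Poisson interval 5.49 to 19.7), where the mean density of chromosome 6 would give 2.11, and 1.21% of all 500 kb windows held as many. The first 100 kb from the cluster held 7 of them, a count that 0.226% of all 100 kb windows reached, although it contained 0 ends of protein-coding genes. The window was looked at because of the cluster, but the count is the highest of the 40 windows examined, so its rank is a description.

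Of these 7 peaks, 5 stood in or next to Halr1, the gene of a long non-coding RNA of ES cells also known as Haunt, which is known to hold back the activation of Hoxa genes while its DNA carries enhancers of them. Halr1 (chromosome 6, 52102949 to 52113684) ends 41.7 kb below the Hoxa cluster. It held 3 peak midpoints, with scores of 17.3 (52105070 to 52105859), 11.7 (52106046 to 52106410) and 4.41 (52110688 to 52110837). The other two followed above it, with scores of 3.57 (52115689 to 52115955) and 7.37 (52116062 to 52116199). The whole group spanned 11.1 kb, of which 1710 bp lay in peaks, with gaps of up to 4.85 kb. Few non-coding genes had as many: 7.1% of all 12727 lncRNA genes held a peak midpoint, and of the 5410 lncRNA genes between 5.37 and 21.5 kb long, 14 (0.259%) held 3 or more. Halr1 was singled out after its peaks were seen.

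The peak with the highest score on this side, 33.7, lay between Halr1 and the adaptor gene Skap2, 76.6 kb from the cluster (52078559 to 52078939). Skap2, the first protein-coding gene on the low-numbered side, held a pair of peaks inside it (scores 14.6 and 5.99), and peaks 124.0 and 447.0 kb from the cluster scored 3.98 and 4.12. The Hoxa13 side was ordinary by comparison, since 49.5% of all 500 kb windows held as few peaks as it did. A single peak (score 10.8) lay there, 211.3 kb from the cluster, and Evx1, a homeobox gene that adjoins the cluster, was 153.8 kb from the nearest peak.

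Around Hoxb the peaks were fewer than around Hoxa but mostly of higher score. On the Hoxb1 side there were 3 within 500 kb, the one beside Hoxb1 described above and others near Snx11, a sorting nexin gene (score 43.1), and inside Cbx1, which encodes the heterochromatin protein HP1 beta (13.8). On the Hoxb13 side there were 4. The highest score around any cluster, 71.2, belonged to a peak inside Igf2bp1 (95980797 to 95981132), the gene of an RNA-binding protein of embryonic tissues, 213.4 kb from the cluster. A peak 6.52 kb from Gip, an incretin hormone gene, scored 27.3, and a pair over the non-coding gene Zfp652os scored 34.2 and 4.91. The first genes on either side, Skap1 and the tubulin-modifying enzyme gene Ttll6, were 20.8 kb and 106.4 kb from a peak. Mean density of chromosome 11 would give 2.61 peaks in each flank.

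Around Hoxc most peaks had low scores. Mean density of chromosome 15 would give 2.16 peaks in each flank. On the Hoxc4 side 6 peaks lay within 500 kb (exact Poisson interval 2.20 to 13.1), a count that 8.07% of all 500 kb windows reached. Their median score was 5.12, with none above 9.59. Of these, 3 stood close together (103240726 to 103247786) at Hnrnpa1, which encodes an abundant splicing regulator, and its neighbours Cbx5 and Nfe2 (scores 4.35, 9.59 and 4.25), 1 in the coatomer gene Copz1 (4.73), and a pair in the phosphodiesterase gene Pde1b (7.18 and 5.52). The Hoxc13 side held 3 peaks, and 33.0% of all 500 kb windows held as many. A pair of them lay inside the kinase gene Map3k12 (4.31 and 4.10) and 1 lay 48.2 kb from Hoxc13 with a score of 13.9. The first genes on either side, Smug1 and Calcoco1, were 71.9 kb and 150.7 kb from a peak.

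The gene-poor flanks of Hoxd held unlike counts, each common among all windows, and the difference was not tested. On the Hoxd13 side, where the only protein-coding genes within 500 kb are Evx2 and Lnpk, 0 peaks were found (exact Poisson interval 0 to 3.69, against 2.22 at the density of chromosome 2). The peak-free stretch there ran for 548.9 kb up to the peak beside Hoxd13 and includes the whole of Hoxd13. Such emptiness was not rare, since 73.1% of all 500 kb windows held a peak, 26.9% held none, and 48.5% of the sequence lay in stretches at least as long. On the Hoxd1 side there were 5 peaks (exact Poisson interval 1.62 to 11.7), a count that 12.9% of all 500 kb windows reached. These 5 peaks had scores of 17.1, 5.52, 17.6, 23.7 and 5.89. They lay 128.3, 212.8, 283.2, 447.4 and 476.0 kb from the cluster, all beyond Mtx2, the first gene on this side, and the nearest to a gene was 16.7 kb from Mtx2. The last 2 fell within the non-coding gene 2600014E21Rik.

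Over the 40 windows of 100 kb around the clusters, 10 per cluster, 17 held a peak (42.5%), against 28.4% of all 27020 such windows, a share that would give 11.4 of 40. There were 33 peaks in all (exact Poisson interval 22.7 to 46.3), 1.81 times the 18.2 that the mean density of the same chromosomes would give. Without the low-numbered side of Hoxa 22 peaks remained, and that side makes up 2.11 of the 18.2. The Hoxa flanks held 12, Hoxc 9, Hoxb 7 and Hoxd 5. The share of windows with a peak rises with the first gene ends in a window, from 23.1% of all windows with none to 33.5% with 1 or 2, and is 36.1% with 3 to 5. Among windows beside Hox clusters, those without a gene end held a peak in 5 of 14 cases, those with 1 or 2 in 7 of 14, those with 3 to 5 in 0 of 6 and those with 6 to 10 in 5 of 6. Over all windows the share with a peak was 32.9% with 6 to 10 ends. The 6 such windows here lay beside Hoxb and Hoxc only. With so few windows per class, and 0 of 6 in the class below, no trend with gene ends is shown.

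Peaks did not thin out steadily away from the clusters. In the first 100 kb there were 9 peaks over the 8 flanks, 7 of them on the low-numbered side of Hoxa. The next step, 100 to 200 kb, held 3, the third 10, the fourth 0 and the fifth 11. By side, the flanks next to the lowest-numbered genes held 25 peaks in 11 of 20 windows, and the flanks next to the highest-numbered genes 8 in 6 of 20, although the latter had more protein-coding gene ends (52 against 39). Without Hoxa the counts were 14 and 7. At Hoxb the order was the other way, with 3 and 4, and the difference was not tested.

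**Figure D2:**
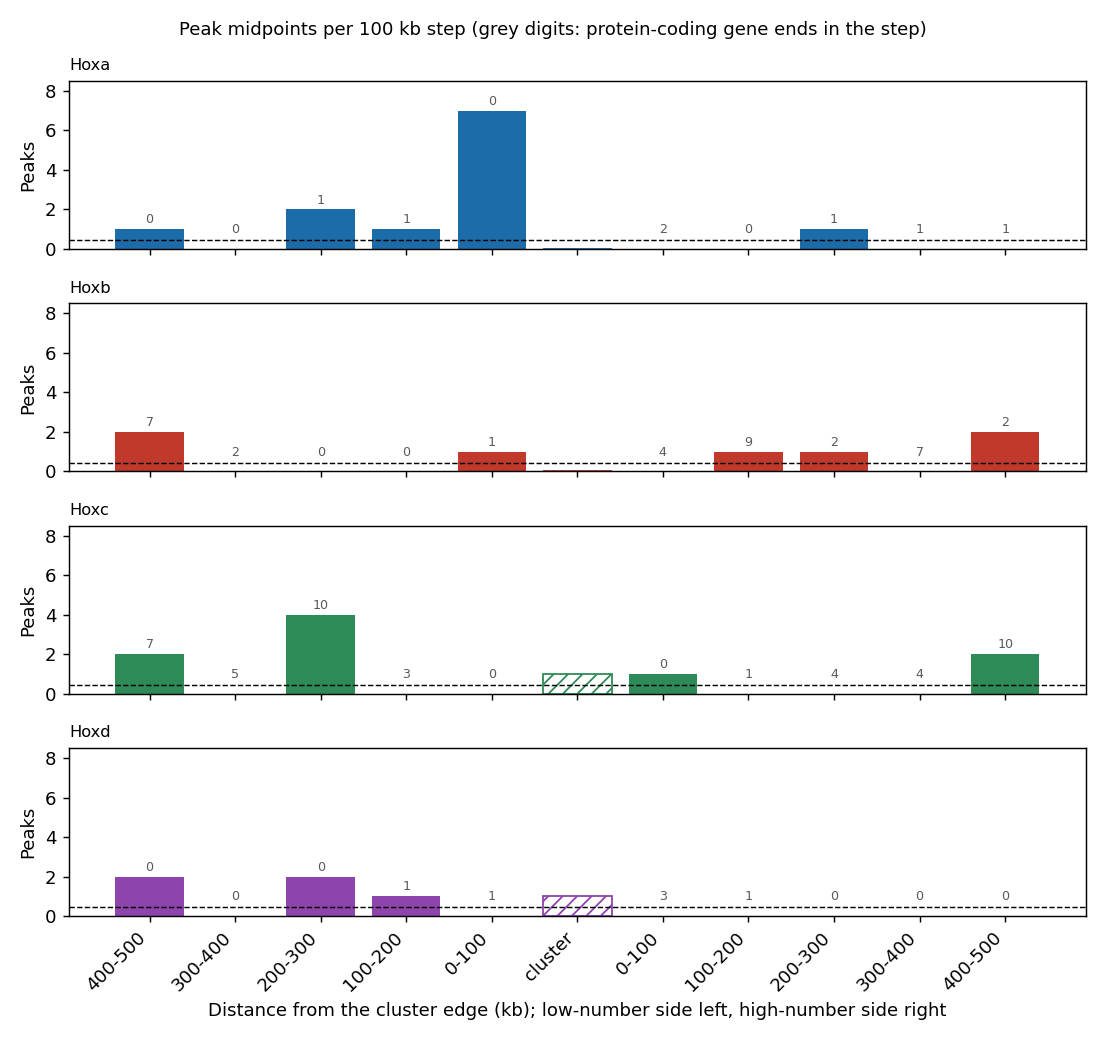
Number of peak midpoints in each 100 kb step (bars) up to 500 kb from the Hoxa, Hoxb, Hoxc and Hoxd clusters, low-numbered side on the left, with the count inside the cluster hatched, the number of protein-coding gene ends in each step in grey digits, and the mean of all chromosomes, 0.444 per 100 kb, as a dashed line. The first step on the low-numbered side of Hoxa stands highest, with 7 peaks and 0 gene ends.

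The median score of the 33 peaks was 7.37 (range 3.57 to 71.2), and 15 of them (45.5%) lay at or above the median of the list. Within 1 kb of a protein-coding gene end lay 3 of the 33, all at Hnrnpa1, Cbx5 and Nfe2. A total of 22 lay in no protein-coding gene, 21 had no end of a protein-coding gene within 10 kb, and 0 belonged to a dense region of 6 or more peaks at gaps of up to 10 kb. The shares of all peaks with these locations are not given here. The location counts therefore describe these 33 peaks and are not traits shown to be particular to them.

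Gene by gene, the distance to the nearest peak mostly followed the order of the genes. This order follows from position alone, since each cluster had its nearest peak at an edge. In Hoxa it rose from 8.22 kb at Hoxa2 through 47.6 kb at Hoxa5 to 104.7 kb at Hoxa13, which acts in limb and genital development. In Hoxb it rose from 6.75 kb at Hoxb1 through 68.9 kb at Hoxb5 to 98.4 kb at Hoxb9. The outlying Hoxb13 was farthest of all members, 176.3 kb from a different peak on the high-numbered side. In Hoxc and Hoxd the order was the opposite. Distances ran from 0 at Hoxc13 through 50.5 kb at Hoxc9 to 91.5 kb at Hoxc4. In Hoxd they ran from 1.15 kb at Hoxd13 through 31.9 kb at Hoxd8 to 90.2 kb at Hoxd1, except that Hoxd3 (39.2 kb) was nearer than Hoxd4 (49.2 kb).

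Genes of the same number therefore stood at unlike distances. Hoxb1 lay within 10 kb of a peak and Hoxd1 did not, and among the members numbered 13, Hoxc13 and Hoxd13 did while Hoxa13 and Hoxb13 did not. Over all 39 members the median distance was 49.2 kb (range 0 to 176.3), against 71.1 kb over all protein-coding genes, and 37 of 39 lay within 100 kb of a peak (94.9%), against 59.0% of all. The 39 genes had only 5 distinct nearest peaks between them, so these shares rest on 5 positions.

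**Figure D3:**
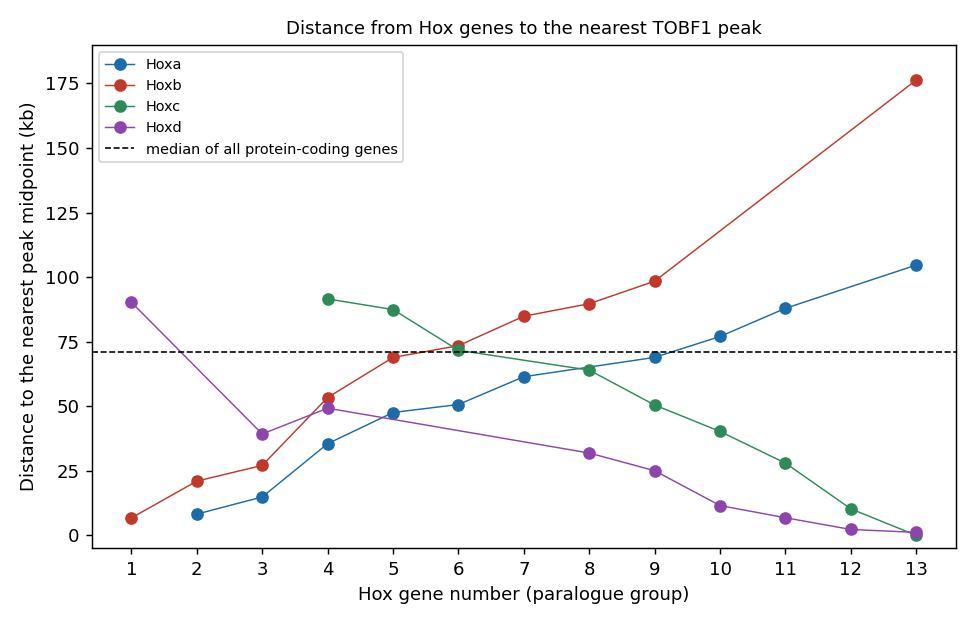
Distance in kb from 38 of the 39 Hox genes to the nearest peak midpoint, by gene number, with 1 colour and connecting line per cluster; the dashed line is the median of all protein-coding genes, 71.1 kb. Hoxa and Hoxb rise with the gene number, Hoxc falls, and Hoxd falls except between Hoxd3 (39.2 kb) and Hoxd4 (49.2 kb).

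The non-coding genes within the clusters were also free of peaks. None of the 25 lncRNA genes that overlap a cluster held a peak midpoint, against 7.1% of all lncRNA genes. At this background a list of 25 would hold few such genes in any case. Since the clusters held only 2 peaks, the absence largely restates that count. Hotairm1 of the Hoxa cluster, a myeloid transcript, was 4.32 kb from a peak, Hotair of the Hoxc cluster 17.5 kb and Haglr of the Hoxd cluster 75.7 kb. The 6 microRNA genes in the clusters, among them Mir10a, Mir10b and Mir196b, whose products act on Hox mRNAs, lay 46.8 to 109.7 kb from the nearest peak. The distances of other microRNA genes are not given here for comparison.

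Of the 47 other protein-coding genes within 500 kb of a cluster, a peak lay at an end (1 kb) in 3 (6.38%) and 13 (27.7%, interval 15.6 to 42.6%) had one in the gene or up to 10 kb away, against 2.67% and 21.6% of all protein-coding genes. Besides the genes named above these were Pcbp2, next to Map3k12, and Sp1, whose nearest peak (score 3.95) lay beyond the 500 kb. The 3 with a peak at an end, Cbx5, Hnrnpa1 and Nfe2, stand at the same peaks. Map3k12 and Pcbp2 also share peaks, and Snx11 and Cbx1 share one, so the 13 are not separate observations. By this count the genes next to the clusters had peaks close by somewhat more often than the Hox genes themselves (17.9%). The difference was not tested, and gene length was not taken into account.

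Genes that act with, above or beside the Hox genes were taken from lists of textbook genes. The measure takes in the whole gene, so long genes such as Rarb, Ebf1, Meis2 and Jarid2 have more room for a peak than most Hox genes. Gene length was not taken into account, so the shares are not shown to be properties of the lists. Among the TALE homeodomain cofactors, which bind DNA together with Hox proteins, 4 of 9 had a peak in the gene or within 10 kb (44.4%, interval 13.7 to 78.8%, against 21.6% of all protein-coding genes), among them Meis1 (highest score 15.5), Meis2 (12.2) and Pbx3 (6.69). Of the 20 upstream regulators of Hox genes there were 6 (30.0%, interval 11.9 to 54.3%), led by Cdx4, a caudal homeobox gene (35.4), and the retinoic acid receptor gene Rarb (33.8), with Rara (9.75) and Rxrg (7.88) next. Cdx2, at 72.4 kb, and the trithorax gene Kmt2a, at 209.9 kb, had none that near.

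Polycomb genes had a peak in 12 of 31 cases (38.7%, interval 21.9 to 57.8%, against 21.6% of all), with the highest scores at Mtf2 (60.6), Jarid2 (49.3), Cbx7 (36.97) and Rybp (19.6). Other developmental regulators known as Polycomb targets had one in 13 of 66 cases (19.7%, interval 10.9 to 31.3%), which is close to the share of all genes, as for the Hox genes. Their highest scores were at Gsx2 (71.3), Pax3 (55.1), Msx2 (52.6) and Ebf1 (40.3). Gsx1 and Gsx2 are relatives of the Hox genes from the ParaHox group, and Gsx1 was the single member of this list with a peak at an end (score 18.3), 0.155 kb from the gene. The third gene of that group in the list, Pdx1, was 81.6 kb from a peak. No gene lists were compared by a test or matched by gene length.

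**Figure D4:**
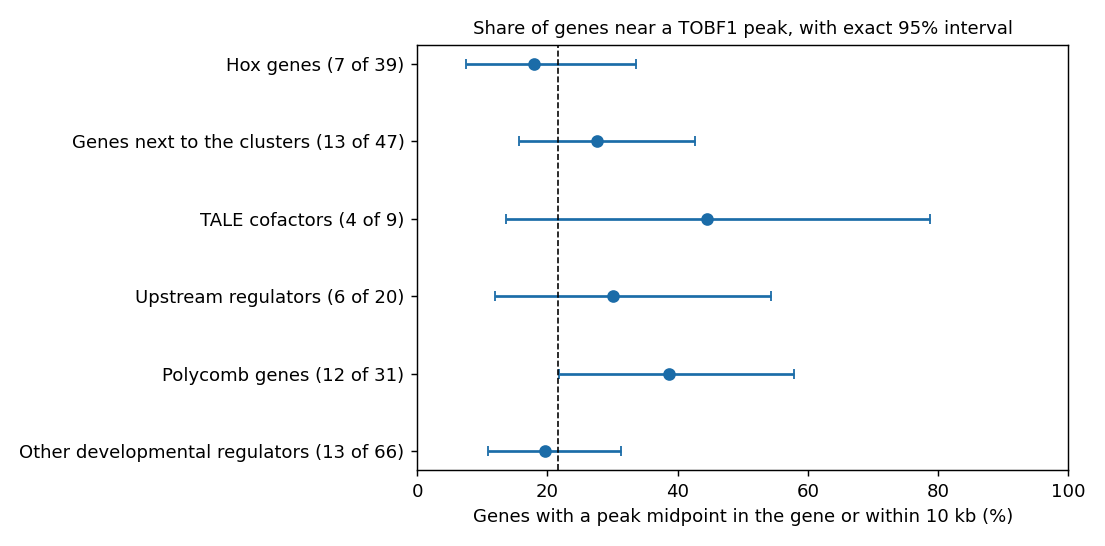
Share of genes (%) with a peak midpoint in the gene or within 10 kb, for the Hox genes, the genes next to the clusters and the 4 gene lists, with exact Clopper-Pearson 95% intervals as bars and counts beside the names; the dashed line is the share of all protein-coding genes, 21.6%. The Hox genes (17.9%) and the other developmental regulators (19.7%) lie closest to the line on its lower side.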

How the data were processed

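Each line of the deposited peak list of the TOBF1 library holds a peak's position, its name and a score. Per the submitters' processing notes, cutadapt, Bowtie2, MACS2 and bedtools were used on mm10; their versions and settings, and any use of the input as control, are not stated in those notes. The deposited scores were taken as q-values on the −log10 scale, since all are positive and the smallest lies near a q of 0.05. RefSeq tables of GRCm38.p6, whose chromosomes have mm10 positions, gave genes and promoters; the gene table has no strand, so both ends were used.

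Peaks were counted by midpoint with Python 3.11.15 (pandas 2.3.3, NumPy 2.4.6, SciPy 1.17.1 for exact intervals; figures by matplotlib 3.10.9), and counting was tested on simulated data. All windows laid end to end between the outermost peaks or genes of a chromosome, assembly gaps included, were the background; no chance test was made. The members and gene lists were chosen with earlier results of these data known. Genes were named by rule: the nearest and farthest Hox gene per cluster, genes next to the clusters with a peak or first on a side, and up to 4 per list by score. Halr1, other non-coding genes, Hox genes inside the clusters, Cdx2, Kmt2a and the ParaHox genes were added after their values were seen. Where the Hox gene nearest to a peak had no listed promoter, the next was printed. Results of 2 genes are not reported here.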

Additional observations from a re-analysis of the deposited data

How the results depend on the processing

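When peaks of less than the median score were left out, the clusters held 0 peaks, the flanking windows 15, the median distance from a Hox gene rose to 104.1 kb (145.2 kb over all protein-coding genes), and the median score of the flanking peaks was 17.4 by construction. Clusters widened by 10 kb on either side held 4 peaks, and the Hox gene bodies alone 1. Within 5 kb of an end there were 4 Hox genes, and 7 within 10 kb of the gene. Up to 1 Mb on either side there were 74 peaks. Counting any overlap gave 2 peaks in the clusters and 33 in the flanks, merging peaks within 1 kb gave 2 and 28, and leaving out dense regions gave 33 in the flanks. The count of 0 Hox genes at an end also held with a window of 500 bp, any overlap, peaks of at least the median score and, chosen after the data were seen, listed starts. The ratio of flanking windows with a peak to the background was 1.496 over all chromosomes, 1.40 on the same chromosomes and 1.41 over windows with as many gene ends. No paired analysis was possible because there was 1 library per group. Depth is unknown, and no untagged control was used here.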

Other observations

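Families with members within 1 Mb of several Hox clusters, picked after their values were seen, differed in how many of these members had a peak. Family members elsewhere were not counted. Of all protein-coding genes, 2.67% had one at an end and 21.6% in the gene or within 10 kb. The genes of hnRNP A proteins found there, which bind RNA and regulate splicing, had a peak at an end (1 kb) in 3 of 3 cases. They were Hnrnpa2b1, 685.3 kb from Hoxa (highest score within 10 kb 14.3), Hnrnpa1, 203.1 kb from Hoxc (9.59), and Hnrnpa3, 894.0 kb from Hoxd (10.4). The HP1 genes Cbx1, Cbx3 and Cbx5, which encode proteins of heterochromatin, had a peak in the gene or within 10 kb in 3 of 3 cases. Cbx5 shares its peaks with Hnrnpa1, Cbx3 shares a peak with Hnrnpa2b1 and Cbx1 shares a peak with Snx11. The counts of these families are therefore not separate observations. Nfe2 and its relatives had a peak in the gene or within 10 kb in 3 of 4 cases. However, Nfe2l3, Nfe2 and Nfe2l2 each adjoin an hnRNP A gene and have the same highest-scoring peak as it, so they are not separate observations. None of the 3 Atp5g genes, which encode a subunit of the mitochondrial ATP synthase, had one, nor did the pair of Evx genes or the pair of Calcoco genes. Of the other pairs, the Snx genes had one in 2 of 2 cases, the Skap genes in 1 of 2 and the Copz genes in 1 of 2. Each hnRNP A and HP1 gene lies beyond 500 kb of the cluster or shares peaks with a neighbour, and no family was tested.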
